A study of Mus musculus with 13 samples.

Results

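The genes described here are 10 ligand-responsive transcription factors: the vitamin D receptor gene Vdr, the retinoid X receptor genes Rxra and Rxrb, the retinoic acid receptor genes Rara and Rarg, the glucocorticoid receptor gene Nr3c1, the heme-binding receptor genes Nr1d1 and Nr1d2, the thyroid hormone receptor gene Thra, and Ahr. They were chosen by name, and are 10 of the 19752 genes measured in mouse thymocytes. Each had 1 probe set with a single annotated symbol, so no choice between probe sets was needed. Ahr encodes the aryl hydrocarbon receptor, which belongs to the bHLH-PAS proteins and not to the nuclear receptor family, so the name nuclear receptor holds for the other genes and not for Ahr.

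RNA came from thymocytes of 2-week-old mice of mixed sex, sorted by flow cytometry, with 1 array per sample. V2 cells were γδ thymocytes with the Vγ2 chain, high for HSA, the CD24 antigen of immature thymocytes, and negative for CD4 and CD8. DP cells carried both CD4 and CD8. The groups were V2 cells of Sox4 conditional knockout (cKO) mice, with 4 arrays, V2 cells of wild-type (WT) mice, with 3 arrays, DP cells of cKO mice, with 2 arrays, and DP cells of WT mice, with 2 arrays. Sox4 encodes an HMG box transcription factor of developing lymphocytes. The Cre driver of the cKO, and the alleles that WT mice carried, are not given in the sources used here. The V2 titles are written in 2 ways, called V2imm and immV2 here; the V2imm knockout titles name no gene and were read as the Sox4 cKO. V2 values are listed with the V2imm arrays first, and each group holds its lowest replicate number of a title set first.

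The array labelled DP cKO replicate 5 and the array labelled V2 WT replicate 5 (immV2) are given apart from these groups, because their markers were those of the other population. Cd4 read 7.47 on the log2 scale in the array labelled DP cKO replicate 5, against 12.36 to 12.62 in the 4 DP arrays. It read 12.65 in the array labelled V2 WT replicate 5 (immV2), against 6.71 to 7.36 in the 7 V2 arrays. Each test below is on the 11 other arrays. For the called differences of the 10 genes, and for some others, the value on the 13 arrays as labelled stands beside it. Differences given without that value may change with the choice as well. Of the 257 measured genes of the gene lists below, Tiparp was the one called on the 13 arrays as labelled, so the calls of the other list genes rest on leaving those arrays out. Sox4 itself read 8.07 to 9.60 in V2 cKO arrays and 8.64 to 9.68 in V2 WT arrays, and 8.68 to 8.74 in DP cKO arrays and 8.55 to 9.37 in DP WT arrays. Sox4 gave -0.51 (SE 0.38, adjusted p = 0.999) for V2 cKO minus V2 WT and -0.25 (SE 0.49, adjusted p = 1) for DP cKO minus DP WT; where its probe set lies relative to the deleted part is not given, so this checks nothing about the labels. Cd24a, the gene of the HSA antigen used in the V2 sort, read 9.46 to 12.31 in V2 cKO arrays and 11.67 to 12.21 in V2 WT arrays, and 10.89 to 10.93 in DP cKO arrays and 11.97 to 12.27 in DP WT arrays. It gave -0.79 (SE 0.32, adjusted p = 0.999) for V2 cKO minus V2 WT and -1.21 (SE 0.41, adjusted p = 1) for DP cKO minus DP WT, and its part in the knockout differences below was not tested. Values were RMA intensities with array medians of 122.2 to 137.2, and precision is limited by how few arrays there are. Separate animals are not stated for replicates, so the p-values rest on the spread among these samples alone, which could be technical.

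Nuclear receptors bind DNA and change transcription when a small lipophilic ligand fits their pocket. VDR, the retinoic acid receptors and the thyroid hormone receptors bind as heterodimers with a retinoid X receptor, often at repeats of the hexamer AGGTCA, whereas the glucocorticoid receptor binds mainly as a homodimer and is held in the cytoplasm by HSP90 chaperones until hormone arrives. In the thymus, glucocorticoids are known for killing DP thymocytes, and RORγt, an orphan receptor, for keeping DP cells alive and for driving IL-17 production. AHR pairs with ARNT, responds to dietary and environmental ligands, and is known in γδ T cells for its part in IL-22 production.

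Vdr, which mediates the response to the hormonal form of vitamin D, was higher in V2 WT than in DP WT cells, and its V2 cKO arrays all lay below the V2 WT arrays. Its log2 intensities were 6.62, 6.0, 6.78 and 8.0 in V2 cKO arrays and 8.54, 8.13 and 8.39 in V2 WT arrays. They were 7.03 and 7.34 in DP cKO arrays and 6.42 and 6.65 in DP WT arrays. So the V2 WT arrays were the highest of the 11, V2 cKO replicate 4 (immV2) came close to them, and both DP cKO arrays were above both DP WT arrays. Of all genes, 1.76% had every V2 cKO array below the V2 WT arrays, and 15.8% had both DP cKO arrays above both DP WT arrays. Vdr was toward the low end of the scale in several arrays. The share of genes below it was 37.1%, 29.1%, 46.0% and 65.4% in V2 cKO arrays and 36.2% and 41.7% in DP WT arrays. In V2 WT arrays the share was 74.7%, 70.5% and 71.4%. Low intensities are compressed, so the folds of Vdr below are imprecise. Of the arrays kept apart, the one labelled DP cKO replicate 5, with V2 markers, read 9.67, above every other array. The one labelled V2 WT replicate 5 (immV2), with DP markers, read 7.50. The first of these is labelled cKO and lay above the V2 WT arrays. The order of V2 cKO below V2 WT thus holds for the 11 arrays, with this array set apart. Its genotype cannot be read from the population markers.

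The V2 WT minus DP WT difference of Vdr was 1.93 (SE 0.34, limma adjusted p = 0.00422), which is 3.81-fold. On the 13 arrays as labelled it was 1.60 (SE 0.64, adjusted p = 0.531). With the V2 arrays of the immV2 titles alone it was 1.85 (adjusted p = 0.0649), and without DP WT replicate 3 the adjusted p was 0.0738. Between the cKO groups, V2 minus DP was -0.33 (SE 0.32, adjusted p = 0.797), with a 95% interval of -1.03 to 0.37. That difference was -1.16 (SE 0.57, limma adjusted p = 0.62) on the 13 arrays as labelled. In bulk samples, fewer cells of a type that makes a transcript and less of it per cell cannot be told apart.

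For Vdr, V2 cKO minus V2 WT was -1.61 (SE 0.29, 95% interval -2.24 to -0.99), a 3.06-fold lower level in V2 cKO cells. Its unadjusted p was 9.54e-05, and its adjusted p over all genes was 0.105, so it did not pass the threshold of 0.05. Within the V2imm titles the difference of means was -2.02 with 2 cKO and 2 WT arrays, and within the immV2 titles it was -0.99 with 2 cKO arrays and 1 WT array. The difference passed in 4 of 23 alternative settings, among them without V2 cKO replicate 4 (immV2), at -1.88 (SE 0.20, adjusted p = 0.00846). On the 13 arrays as labelled it was -1.29 (SE 0.53, adjusted p = 0.996). DP cKO minus DP WT, at 0.65 (SE 0.37, adjusted p = 1), had the opposite sign. The difference between the knockout effects, V2 minus DP, was -2.26 (SE 0.47, 95% interval -3.28 to -1.24), with an unadjusted p of 3.68e-04 and an adjusted p of 0.577. With the 13 arrays as labelled, DP cKO minus DP WT was 1.48 (SE 0.68) and the difference between knockout effects -2.77 (SE 0.86). The comparisons of V2 WT with DP WT and of V2 cKO with V2 WT share the V2 WT arrays.

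Markers of V2 cells also read lower in V2 cKO arrays. All 8 measured V2 markers had a lower value in V2 cKO than in V2 WT arrays, with a median log2 difference of -0.985 and 6 of 8 at an unadjusted p under 0.05, and none of them passed the adjusted threshold. The part of this shift in the Vdr difference was not tested. V2 cKO replicate 4 (V2imm) had the lowest upper quartile of intensity, 332.7 where the other arrays had up to 426.2. Leaving out any single array gave a Vdr difference of -2.02 to -1.35.

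The 250 bases before the annotated start of Vdr (RefSeq, GRCm38.p6, chr15:97908297-97908546, minus strand) are shown because Vdr had the largest difference of the 10 genes both in V2 WT minus DP WT and in V2 cKO minus V2 WT. Capitals mark GC boxes (GGGCGG, searched on both strands), of which this window holds 3. GC boxes were present in 32.7% of the 32851 promoter windows of this length. The Sox core motifs AACAAAG and AACAATG, searched likewise and present in 5.03% and 3.29% of windows, are not among the letters of this one.
Vdr: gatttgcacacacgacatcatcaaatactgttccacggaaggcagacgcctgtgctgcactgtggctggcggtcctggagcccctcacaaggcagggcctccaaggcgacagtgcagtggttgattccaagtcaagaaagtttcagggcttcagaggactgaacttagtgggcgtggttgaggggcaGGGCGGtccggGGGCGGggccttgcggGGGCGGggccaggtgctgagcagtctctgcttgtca

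**Figure D1:**
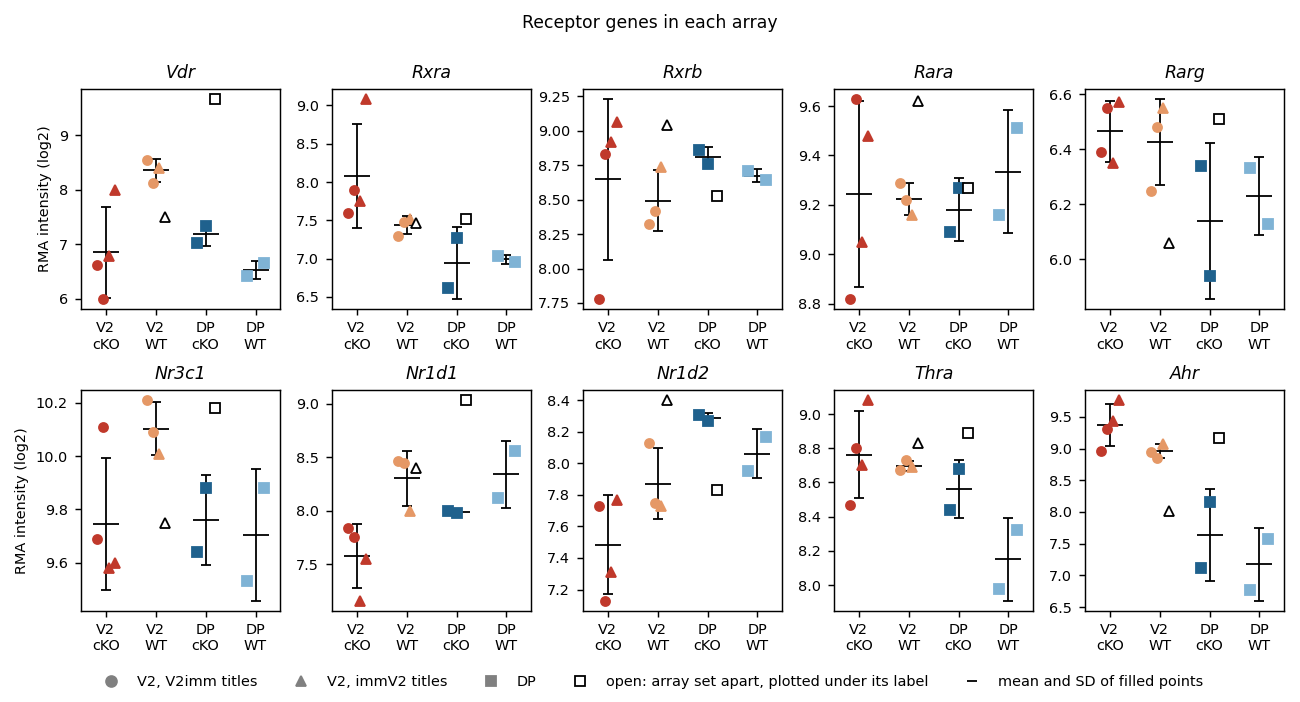
Log2 RMA intensity of the 10 genes in each array, by group, with V2 cKO left of V2 WT and DP cKO left of DP WT; each filled point is 1 array (circles V2imm, triangles immV2, squares DP), bars give mean and SD of the filled points, and open points are the arrays labelled DP cKO replicate 5 and V2 WT replicate 5 (immV2). Vdr is at 6.0 to 8.0 in V2 cKO and at 8.13 to 8.54 in V2 WT, and Ahr is at 8.85 to 9.76 in all V2 arrays against 6.77 to 8.15 in DP arrays.

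None of the other measured genes of vitamin D biology was called. Cyp24a1, Gc and Spp1 were not measured, so nothing can be read about them here. Of 13 genes of vitamin D metabolism and response, 10 were measured and limma called 0 of them in any of the 5 comparisons, among them the activating enzyme gene Cyp27b1, at -0.28 (SE 0.12, unadjusted p = 0.0416) for V2 cKO minus V2 WT. The list had 1 gene at an unadjusted p under 0.05 in that comparison, 1 in each population comparison, and 0 in the other 2. Between the populations the nearest to the threshold was Trpv6, a calcium channel gene, at -0.46 (SE 0.17, adjusted p = 0.201) for V2 WT minus DP WT. Lrp2, Cubn, Calb1 and Cyp3a11 were in the lowest quartile of genes in all 13 arrays, so little can be read about them.

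Rxra, the partner that VDR and the retinoic acid receptors bind with, was higher in V2 cKO than in DP cKO cells. It read 7.59, 7.89, 7.75 and 9.09 in V2 cKO arrays and 7.30, 7.48 and 7.52 in V2 WT arrays. It read 6.61 and 7.27 in DP cKO arrays and 7.03 and 6.95 in DP WT arrays. Every V2 array was thus above every DP array, narrowly for V2 WT replicate 4 (V2imm), V2 cKO replicate 4 (immV2) was far above the rest, and the V2 cKO arrays did not overlap the V2 WT arrays. Of all genes, 4.79% had every V2 array above every DP array, and 1.69% had every V2 cKO array above the V2 WT arrays. V2 cKO minus DP cKO was 1.14 (SE 0.31, adjusted p = 0.048), or 2.20-fold, and V2 WT minus DP WT was 0.52 (SE 0.32, adjusted p = 0.602). The first of these passed in 7 of 23 alternative settings, and was 0.94 (SE 0.29, adjusted p = 0.407) on the 13 arrays as labelled. V2 cKO minus V2 WT was 0.57 (SE 0.27, adjusted p = 0.999), at 0.35 within the V2imm titles and 0.90 within the immV2 titles. Rxra in the array labelled DP cKO replicate 5, with V2 markers, read 7.52, as high as in V2 WT arrays. It read 7.47 in the array labelled V2 WT replicate 5 (immV2), with DP markers, above all 4 DP arrays and within the range of the V2 WT arrays.

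The upstream window of the second annotated start of Rxra (RefSeq, GRCm38.p6, chr2:27709042-27709291, plus strand) is shown for its AGGTCA hexamers. It holds AGGTCA on the minus strand, from -87 to -82 relative to the start, and on the plus strand, from -48 to -43, in capitals. Windows with at least 1 AGGTCA were 14% of all. A match of letters describes the window only.
Rxra: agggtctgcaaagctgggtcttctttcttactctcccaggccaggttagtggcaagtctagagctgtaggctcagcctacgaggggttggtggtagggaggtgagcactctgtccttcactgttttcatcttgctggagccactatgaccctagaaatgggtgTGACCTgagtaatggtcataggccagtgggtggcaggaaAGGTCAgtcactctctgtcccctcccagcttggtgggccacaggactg

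Rxrb, which encodes another retinoid X receptor, had no called difference. It read 7.78, 8.83, 8.92 and 9.06 in V2 cKO arrays, 8.32, 8.42 and 8.74 in V2 WT arrays, 8.86 and 8.76 in DP cKO arrays and 8.71 and 8.64 in DP WT arrays. V2 cKO replicate 4 (V2imm) was the lowest array, and V2 and DP overlapped. Its differences had intervals of -0.64 to 0.47 for V2 WT minus DP WT and -0.40 to 0.53 for V2 cKO minus V2 WT.

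The retinoic acid receptor genes had no called difference either. Rara read 8.82, 9.63, 9.05 and 9.48 in V2 cKO arrays, 9.29, 9.22 and 9.16 in V2 WT arrays, 9.09 and 9.27 in DP cKO arrays and 9.16 and 9.51 in DP WT arrays, so the groups overlapped throughout. Its V2 cKO minus V2 WT difference was 0.02, with a 95% interval of -0.43 to 0.47. Rarg was at the low end of the scale: across the 13 arrays 26.7% to 41.8% of genes were dimmer. It read 6.35 to 6.57 in V2 cKO arrays, 6.25 to 6.55 in V2 WT arrays, 5.94 to 6.34 in DP cKO arrays and 6.13 to 6.33 in DP WT arrays. Rarg came nearest to a difference in V2 cKO minus DP cKO, at 0.33 (SE 0.15, adjusted p = 0.338).

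Among genes of retinoid supply, Dhrs3, which encodes an enzyme that reduces retinaldehyde to retinol, was lower in V2 cells. It averaged 7.35 ± 0.47 in V2 cKO arrays (SD, n = 4), 7.95 ± 0.20 in V2 WT arrays (SD, n = 3), 10.33 ± 0.04 in DP cKO arrays (SD, n = 2) and 10.65 ± 0.12 in DP WT arrays (SD, n = 2). The differences of Dhrs3 were -2.98 (SE 0.19, adjusted p = 5.83e-07) for V2 cKO minus DP cKO and -2.60 (SE 0.20, adjusted p = 3.47e-06) for V2 WT minus DP WT. The differences of Dhrs3 on the 13 arrays as labelled were -2.23 (adjusted p = 0.257) and -2.09 (adjusted p = 0.407). Adh1, an alcohol dehydrogenase gene, was higher in V2 cKO than in DP cKO cells, by 1.78 (SE 0.33, adjusted p = 0.00488), with a wide spread in V2 cKO arrays (SD 1.49). Of the 23 measured genes of retinoid metabolism, 1 higher and 1 lower were called in V2 cKO minus DP cKO, beside 3.5% and 1.94% of all genes, and 0 higher and 1 lower in V2 WT minus DP WT, beside 3.2% and 1.67%. The 9 measured retinoid target genes had 1 call in each population comparison, Itgb7, which encodes the β7 integrin chain, at 1.5 (SE 0.34, adjusted p = 0.0188) in cKO and 1.37 (SE 0.36, adjusted p = 0.0479) in WT cells.

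**Figure D2:**
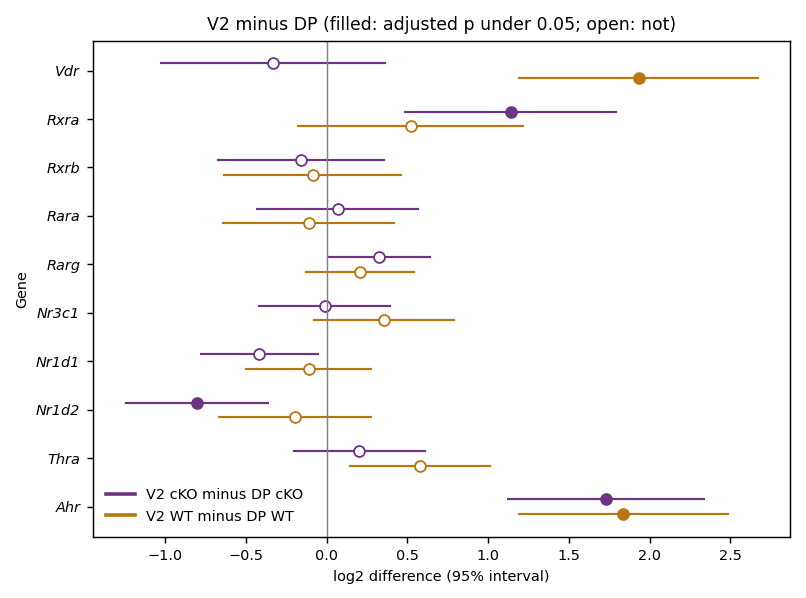
V2 minus DP difference in log2 intensity of each of the 10 genes, in cKO and in WT arrays, with 95% intervals; filled points have an adjusted p under 0.05 and open points do not. Ahr lies at 1.73 in cKO and 1.84 in WT, while Vdr lies at -0.33 in cKO and 1.93 in WT.

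Nr3c1, whose product is the receptor of cortisol and corticosterone, was among the brighter genes in every array, with 87.9% to 93.3% of genes below it. It read 9.69, 10.11, 9.58 and 9.60 in V2 cKO arrays and 10.21, 10.09 and 10.01 in V2 WT arrays. It read 9.64 and 9.88 in DP cKO arrays and 9.53 and 9.88 in DP WT arrays. The V2 WT arrays were high, but 1 V2 cKO array lay among them, and the 3 other V2 cKO arrays lay within the range of the DP arrays. Its differences were -0.32 (SE 0.17, adjusted p = 0.999) for V2 cKO minus V2 WT and 0.35 (SE 0.20, adjusted p = 0.536) for V2 WT minus DP WT. V2 cKO minus DP cKO was -0.01, with a 95% interval of -0.43 to 0.40.

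Of 22 measured genes known to respond to glucocorticoids, 2 were called higher and 2 lower in V2 cKO minus DP cKO, beside 3.5% and 1.94% of all genes. In V2 WT minus DP WT 2 were called higher and 1 lower, beside 3.2% and 1.67%, and the rest did not pass. Il7r, which encodes the IL-7 receptor chain, was higher in V2 cells, by 4.14 (SE 0.22) in cKO and 3.97 (SE 0.23) in WT. Il7r on the 13 arrays as labelled was at 2.70 (adjusted p = 0.549) and 2.83 (adjusted p = 0.57). Zbtb16, the gene of the transcription factor PLZF, was higher by 1.30 and 1.10 in the same order, and Nfkbia, an inhibitor of NF-κB, was lower, at -1.25 and -1.59. Zfp36, an mRNA decay factor gene, was lower in cKO cells, at -0.95. Tsc22d3, which encodes the glucocorticoid-induced leucine zipper protein, did not pass, at -0.72 (SE 0.20, adjusted p = 0.0598) for V2 WT minus DP WT. The cochaperone gene Fkbp5, another well-known target, was at 0.19 (SE 0.23, adjusted p = 0.882). Il7r and Zbtb16 are also known as genes of γδ and innate-like T cells. Of 15 measured chaperone genes, Hsp90b1, of the endoplasmic reticulum, and Hspa4 were the 2 called in V2, at 0.90 and 0.77 in cKO and 1.15 and 0.70 in WT. Hsd11b1, whose enzyme turns inert glucocorticoid into the active hormone, was lower in V2 cells, at -1.02 in cKO and -1.33 in WT, and was the one call among 10 genes of steroid synthesis and activation. Its spread was wide in V2 arrays, with an SD of 1.36 in cKO and 0.84 in WT, against 0.26 and 0.01 in DP arrays.

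Nr1d1 and Nr1d2 encode REV-ERBα and REV-ERBβ, repressors that close a loop of the circadian clock by holding down Arntl. Nr1d1 read 7.84, 7.75, 7.16 and 7.55 in V2 cKO arrays and 8.46, 8.44 and 8.0 in V2 WT arrays. It read 8.0 and 7.98 in DP cKO arrays and 8.12 and 8.56 in DP WT arrays. In both populations the cKO arrays among the 11 thus all lay below the WT arrays. Of all genes, 1.76% did so in V2 cells and 14% in DP cells, which had 2 arrays a group. V2 cKO minus V2 WT was -0.65 (SE 0.15, adjusted p = 0.305), at -0.66 within the V2imm titles and -0.64 within the immV2 titles. DP cKO minus DP WT was -0.35 (SE 0.20, adjusted p = 1). Nr1d1 in the array labelled DP cKO replicate 5 read 9.03, and with the 13 arrays as labelled the DP difference was 0.00. Nr1d1 and Thra overlap on the chromosome in the RefSeq annotation, and the position of their probes was not examined.

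Nr1d2 was lower in V2 cKO than in DP cKO cells. It read 7.73, 7.13, 7.31 and 7.77 in V2 cKO arrays and 8.13, 7.75 and 7.73 in V2 WT arrays. It read 8.31 and 8.27 in DP cKO arrays and 7.95 and 8.17 in DP WT arrays. The V2 cKO arrays were all below the DP arrays, and overlapped the V2 WT arrays. V2 cKO minus DP cKO was -0.80 (SE 0.21, adjusted p = 0.0392), and V2 WT minus DP WT was -0.19 (SE 0.22). The call was kept in 12 of 23 alternative settings, and the difference was -0.65 (SE 0.21, adjusted p = 0.437) on the 13 arrays as labelled. V2 cKO minus V2 WT was -0.38 (SE 0.18, adjusted p = 0.999), with -0.51 within the V2imm titles and -0.19 within the immV2 titles. The window upstream of Nr1d2 (RefSeq, GRCm38.p6, chr14:18239107-18239356, minus strand) is printed because it holds 1 AGGTCA hexamer and 3 GC boxes, in capitals.
Nr1d2: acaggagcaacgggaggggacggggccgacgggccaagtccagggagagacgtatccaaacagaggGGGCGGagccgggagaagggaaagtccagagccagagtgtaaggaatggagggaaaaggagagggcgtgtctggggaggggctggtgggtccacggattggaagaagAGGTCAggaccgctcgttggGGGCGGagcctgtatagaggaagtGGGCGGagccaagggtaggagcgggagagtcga

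Of 19 measured clock genes, 3 were called in each population comparison, where 5.45% of all genes were in cKO and 4.87% in WT cells. Arntl, the activator that REV-ERB proteins repress, was lower in V2 cells, at -1.41 (SE 0.21, adjusted p = 0.001) in cKO and -1.52 (SE 0.22, adjusted p = 9.14e-04) in WT. Arntl on the 13 arrays as labelled was at -1.12 (adjusted p = 0.415) and -1.14 (adjusted p = 0.48). Rora, a receptor that competes with REV-ERB proteins at their sites, was higher by 2.44 (SE 0.27) and 2.50 (SE 0.29) in the same order, and is counted among the other nuclear receptors below as well. Cry1 was lower in WT cells, at -0.79, and Fbxl21 higher in cKO cells, at 0.85.

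Thra, the thyroid hormone receptor α gene, read 8.47, 8.80, 8.70 and 9.08 in V2 cKO arrays, 8.67, 8.73 and 8.69 in V2 WT arrays, 8.44 and 8.68 in DP cKO arrays and 7.98 and 8.32 in DP WT arrays. V2 arrays were mostly higher, but DP cKO replicate 4 at 8.68 lay within the V2 range. V2 WT minus DP WT was 0.58 (SE 0.20, adjusted p = 0.163). Of 10 measured genes of the thyroid hormone axis, Slc16a10, a transporter gene for thyroid hormone and aromatic amino acids, was the one called, at 1.09 (SE 0.29, adjusted p = 0.0446) for V2 cKO minus DP cKO.

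Ahr separated V2 from DP cells in both genotypes. It read 8.96, 9.30, 9.44 and 9.76 in V2 cKO arrays and 8.95, 8.85 and 9.07 in V2 WT arrays. It read 7.12 and 8.15 in DP cKO arrays and 6.77 and 7.58 in DP WT arrays. All 7 V2 arrays were above all 4 DP arrays, as was the case for 4.79% of all genes. The spread of the DP arrays was wide. V2 cKO minus DP cKO was 1.73 (SE 0.28, adjusted p = 0.00221), and V2 WT minus DP WT was 1.84 (SE 0.30, adjusted p = 0.00234), or 3.57-fold. Without DP cKO replicate 3 the cKO difference was 1.21 with an adjusted p of 0.0688, and without DP WT replicate 3 the WT difference was 1.43 with one of 0.0621. With the V2 arrays of the immV2 titles alone the WT difference of Ahr was 1.90 (SE 0.46, adjusted p = 0.0743). On the 13 arrays as labelled they were 1.22 (SE 0.42, adjusted p = 0.462) and 1.54 (SE 0.47, adjusted p = 0.425). The arrays kept apart followed their markers and not their labels, with 9.17 in the array labelled DP cKO replicate 5 and 8.01 in that labelled V2 WT replicate 5 (immV2). The knockout differences were 0.35 (SE 0.25) in V2 and 0.46 (SE 0.33) in DP, both at an adjusted p of 0.999 or more. They were 0.65 (SE 0.39) and 0.97 (SE 0.50) on the 13 arrays as labelled.

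Of 10 measured partners and targets of AHR, 1 was called. Tiparp, a target that encodes a poly(ADP-ribose) polymerase, was lower in V2 WT than in DP WT cells, at -1.63 (SE 0.20, adjusted p = 2.15e-04), while V2 cKO minus DP cKO was -0.57 (SE 0.19, adjusted p = 0.118). The WT difference of Tiparp on the 13 arrays as labelled was -1.51 (adjusted p = 0.034). Arnt, the partner of AHR, was at -0.10 (SE 0.22, adjusted p = 0.963) in WT cells, and the enzyme genes Cyp1a1 and Cyp1b1 and the repressor gene Ahrr were within 0.03 of 0 there, with adjusted p of 0.993, 0.996 and 0.993. Ahrr was below the lower quartile in every array, and Cyp1a1 and Cyp1b1 averaged 5.83 and 5.68 in V2 WT arrays and 5.84 and 5.64 in DP WT arrays, at the dim end of the scale, so little can be read about them.

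Counted together, 3 of the 10 genes were called in V2 cKO minus DP cKO (Ahr and Rxra higher, Nr1d2 lower), where 5.45% of all genes were, and Vdr and Ahr, 2 of 10, in V2 WT minus DP WT, where 4.87% of all genes were. The median difference of the 10 was 0.03 in the first and 0.28 in the second, beside -0.01 and -0.02 over all genes. On the 13 arrays as labelled 0 of 10 were called in either, with 0.0354% and 0.0557% of all genes called. Rxra and Ahr, 2 of 10, had every V2 array above every DP array, as did 4.79% of all genes, and 0 of 10 had every V2 array below, as did 3.49% of all genes.

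For the knockout, limma called 0 of the 10 genes in V2 cells, and 0 of all 19752 genes (0%); 2 of the 10 and 757 of all genes were at an unadjusted p under 0.05. In DP cells 0 of the 10 were called and 0 were at an unadjusted p under 0.05, with 5 of all genes called (0.0253%). For the difference between the knockout effects, 0 of the 10 and 0 of all genes (0%) were called, and 1 of the 10 and 372 of all genes were at an unadjusted p under 0.05. In V2 cells Rxra had all cKO arrays above the WT arrays (1.69% of all genes did) and Vdr and Nr1d1 had them all below (1.76%). In DP cells, with 2 arrays a group, Vdr, Rxrb, Nr1d2 and Thra had both cKO arrays above (15.8%) and Nr1d1 had both below (14%).

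**Figure D3:**
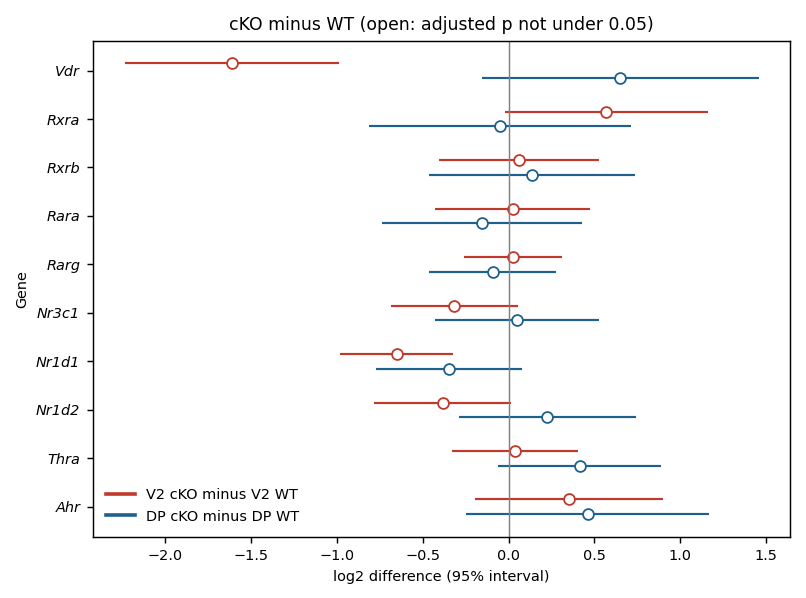
cKO minus WT difference in log2 intensity of the 10 genes in V2 and in DP cells, with 95% intervals; all points are open because no adjusted p was under 0.05. Vdr is at -1.61 in V2 and at 0.65 in DP, and Nr1d1 is at -0.65 in V2 and -0.35 in DP.

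The other nuclear receptors of the mouse were set beside these genes, with 36 of 40 measured. V2 cKO minus DP cKO had 4 higher and 0 lower calls, beside 3.5% and 1.94% of all genes, and V2 WT minus DP WT had 3 higher and 0 lower, beside 3.2% and 1.67%. On the 13 arrays as labelled 0 of the 36 were called in either. Rora led both on the 11 arrays. Nr4a3 and Nr4a2, orphan receptors induced by antigen receptor signals, were higher in V2 cells, at 1.2 and 0.68 in cKO and 1.10 and 0.94 in WT. Rxrg, which encodes the third retinoid X receptor, was higher by 1.49 (SE 0.34, adjusted p = 0.0198) in cKO cells, where its V2 arrays had an SD of 1.31, and was at 1.25 (SE 0.36, adjusted p = 0.0747) in WT cells. Rorb, Nr1h5, Nr3c2, Nr5a2, Nr0b1 and Hnf4g lay below the lower quartile of every array. Of the 18 measured coactivator genes, Carm1, an arginine methyltransferase gene, at 1.37, and Pprc1, at 0.91, were called in WT cells. In cKO cells Pprc1, at 0.78, and Prmt1, at 0.63, were higher and Ncoa1, at -0.85, was lower. None of the 11 measured corepressor genes was called by limma in any comparison; 1 was at an unadjusted p under 0.05 for V2 WT minus DP WT, and 0 for V2 cKO minus DP cKO. No list had a call for the knockout in V2 or DP cells.

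**Figure D4:**
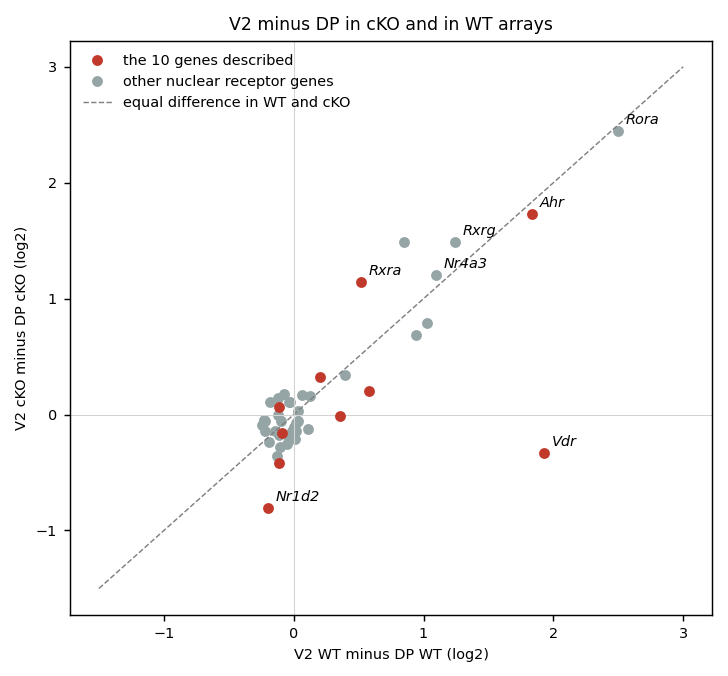
V2 minus DP difference in log2 intensity in cKO arrays (y axis) against the same difference in WT arrays (x axis), for the 10 genes and the 36 other nuclear receptor genes measured; the dashed line marks equal differences. Ahr (1.73 in cKO, 1.84 in WT) and Rora (2.44 in cKO, 2.50 in WT) lie near the line, Vdr (-0.33 in cKO, 1.93 in WT) lies far below it and Rxra (1.14 in cKO, 0.52 in WT) lies above it.

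Signs of other cell types were uneven between the populations. The 17 measured macrophage and dendritic cell markers summed to an intensity of 1585 to 6605 in V2 cKO arrays and 1386 to 3524 in V2 WT arrays, and to 1296 to 1392 in DP cKO arrays and 1260 to 1293 in DP WT arrays. In V2 cKO minus V2 WT, 14 of the 17 had a higher value and 0 were called. In V2 minus DP, 15 of the 17 had a higher value in cKO and 12 in WT, with medians of 0.21 and 0.115 and 1 call each. That call was the protease gene Ctss, higher in V2 by 1.97 in cKO and 1.5 in WT. The lysozyme gene Lyz2 averaged 7.04 in V2 cKO arrays (SD 1.65) and 5.95 in DP cKO arrays (SD 0.12). The class II genes Cd74 and H2-Aa averaged 8.35 (SD 1.89) and 7.36 (SD 1.98) in V2 cKO arrays. In DP cKO arrays they averaged 6.63 (SD 0.24) and 5.56 (SD 0.09). In V2 WT arrays Lyz2, Cd74 and H2-Aa averaged 6.93 (SD 1.43), 8.78 (SD 2.25) and 7.57 (SD 1.85). Their DP WT averages were 5.79, 5.95 and 5.48. None of these genes passed. Some V2 arrays were thus bright for macrophage and dendritic cell genes. Of the 17, Adgre1, Clec9a and Tlr4 were below the lower quartile in every array, so little can be read about them. The 14 thymic stroma markers summed to 2738 to 3604 in V2 cKO arrays, 3320 to 3593 in V2 WT arrays, 2231 to 2365 in DP cKO arrays and 2293 to 2348 in DP WT arrays, with Pdgfrb higher in V2 by 1.92 in cKO and 2.60 in WT and the epithelial gene Epcam by 0.73 in cKO. These were the called ones, 2 of 14 in cKO and 1 in WT, and 5 of the 14 had a higher value in V2 in each, with medians of -0.129 in cKO and -0.041 in WT. B cell, granulocyte and erythroid markers had 0 calls between the populations. The part of these markers in the V2 levels of Vdr, Rxra and Ahr was not tested.

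Genes whose levels ran most like those of Vdr, Rara, Nr3c1 and Ahr were found by Pearson correlation over the 11 arrays, among 14813 genes above the lower quartile on average. These arrays share their groups and title sets, so the correlations are descriptions. For Vdr they were Slc25a36 (r = 0.878), Uhrf1bp1l (0.839) and Etfdh (0.823), where 95% of genes had r under 0.45. Slc25a36, a mitochondrial nucleotide carrier gene, averaged 9.85 in V2 cKO, 10.29 in V2 WT, 9.76 in DP cKO and 9.80 in DP WT arrays, so its V2 WT level stood out as that of Vdr did. For Rara they were Arv1 (0.907), Ppp1r9b (0.891) and Wdfy1 (0.886). For Nr3c1 they were Plxna1 (0.945), Slc29a3 (0.936) and Gnb1 (0.932). For Ahr they were Prkaa1 (0.971), Angpt1 (0.970) and Eng (0.967), and 95% of genes had r under 0.80, since many genes separate the populations. Eng, which encodes the TGF-β coreceptor endoglin, averaged 10.50 in V2 cKO, 10.28 in V2 WT, 8.36 in DP cKO and 7.48 in DP WT arrays. Among the 10 genes, Ahr ran with Thra (r = 0.86) and Rxra (r = 0.80), Rxra with Thra (r = 0.76), and Nr1d1 with Nr1d2 (r = 0.61). The most negative values were those of Nr1d2 with Ahr and with Rarg (both r = -0.66). Vdr had no r above 0.48 with any of the others.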

How the data were processed

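TriZol RNA of sorted thymocytes was labelled with a whole-transcript kit and hybridised to Affymetrix arrays, per the labels' protocols. The deposited values are linear probe set intensities. The submitters' processing notes name RMA and Affymetrix Power Tools, with versions not given in the sources used here. RMA corrects background, normalises arrays to a common distribution and summarises probes, so low intensities are compressed. The log2 of each deposited intensity was taken here.

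Of 24922 probe sets, the annotation of the platform gave 21425 a single symbol, 1399 several, and left out 2098. The brightest probe set stood for a gene, giving 19752 genes. A linear model with moderated, intensity-trended variances (limma 3.58.1, R 4.3.3) covered 11 arrays, with 4 group means and a term for the title set, coded so that a V2 group mean weights both title sets equally; a difference can therefore depart from that of plain means. The 5 comparisons used two-sided tests with Benjamini-Hochberg adjustment over all genes and a threshold of 0.05; a gene is called where it passes. The arrays labelled DP cKO replicate 5 and V2 WT replicate 5 (immV2) were left out, and all 13 arrays were an alternative; no array was moved to another group. Groups came from the titles. Residual correlations of same-numbered arrays were -0.35, -0.22, 0.18 and -0.5. The fit ties the residuals of a group or title set to each other. The immV2 arrays read -0.5, -0.49 and -0.51 among themselves, whatever their numbers. These values therefore cannot decide whether the numbers mark pairs, and the main fit did not use them as pairs. The fit was tested on simulated data. Alternatives were other normalisations, filters, moderation, title sets, a replicate block and left-out arrays.

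Named were the 10 genes; of each list the called genes with the smallest p, up to 5 a direction, or up to 2 where none was called; and the 3 genes most like Vdr, Rara, Nr3c1 and Ahr. Tsc22d3, Fkbp5, Arnt, Cyp1a1, Cyp1b1 and Ahrr fall outside this rule and were named as textbook targets or partners after their values were seen; Cd24a, Lyz2, Cd74 and H2-Aa were also named after theirs were seen. The members and lists were chosen with earlier results of these data known. Of 286 list genes, 257 were measured. Promoter windows are from RefSeq, with entries for 7 of the 10 genes. Plots used matplotlib 3.10.9 under Python 3.11.15.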

Additional observations from a re-analysis of the deposited data

Results flagged for a closer look

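Nr1d1 in the 4 arrays labelled V2 WT had 1 array far from the others: V2 WT replicate 3 (immV2) read 8.0, against 8.46, 8.44 and 8.40. The 8.40 is the array labelled V2 WT replicate 5 (immV2), which has DP markers and is given apart from the groups in the results. Of 20 groups of members tested in this way, 1 stood out, and chance alone gives about 1 in 20.

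Vdr moved in opposite directions with the knockout, lower in V2 cKO than in V2 WT arrays and higher in DP cKO than in DP WT arrays. The difference between the knockout effects was -2.26 (SE 0.47), with an adjusted p of 0.577 by limma, so it did not pass the threshold. Among the 11 arrays, cKO and WT arrays did not overlap in either population. That was the case for 1.76% of all genes with V2 cKO below V2 WT, and for 15.8% with DP cKO above DP WT. The array labelled DP cKO replicate 5, with V2 markers and Vdr at 9.67, was not among the 11.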

How the results depend on the processing

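Of 50 differences of the 10 genes (5 comparisons), 29 kept their direction in all 23 alternative settings and 21 did not, with 55 of 1150 recomputed values reversed; none of the 5 called differences reversed. With groups of 2 to 4 arrays and signals near background for Rarg, and low for Vdr in several arrays, small differences could not be resolved.

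For V2 WT minus DP WT, genes called were 11 with 13 arrays and 594 with no title set term, and leaving out single arrays gave 477 (without DP WT replicate 3) to 1575 (without V2 cKO replicate 4, V2imm), with 606 without V2 WT replicate 4, 639 without V2 WT replicate 3 and 1478 without V2 cKO replicate 5. For V2 cKO minus DP cKO they were 7 and 637 in the same settings, and 480 (without DP cKO replicate 3) to 1632 (without V2 cKO replicate 4, V2imm), with 544 without DP cKO replicate 4. For V2 cKO minus V2 WT they were 6 with the V2imm titles alone, 13 with quantile normalisation, 27 with 75th percentile scaling, 8 with dim genes left out, 6 with robust moderation and 34 with the replicate block. Leaving out single arrays gave 0 to 44 there (44 without V2 cKO replicate 5). For DP cKO minus DP WT they were 0 with 13 arrays or the immV2 titles alone, 3 with no title set term, 9 with quantile normalisation, 15 with 75th percentile scaling and 8 with the replicate block, and 0 to 14 without single arrays (14 without V2 cKO replicate 4 or 5, V2imm). For the difference between the knockout effects they were 5 with 75th percentile scaling and 4 with the replicate block, and 0 to 4 without single arrays (4 without DP WT replicate 3, 2 without DP cKO replicate 4, 1 without V2 cKO replicate 4 of either title set). The cause was not tested.

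Vdr in V2 cKO minus V2 WT passed in 4 settings: with the V2imm titles alone (-2.02, adjusted p = 0.0298), 75th percentile scaling (-1.62, 0.0247), the replicate block (-1.88, 4.89e-06) and without V2 cKO replicate 4, immV2 (-1.88, 0.00846). The difference between its knockout effects passed with the replicate block (-2.49, 0.0121) and without that array (-2.53, 0.0488). In the knockout comparisons the replicate block left 2 residual degrees of freedom, against 6 in the main fit, so its small p-values are weakly based. Pairing the V2imm arrays in crossed order called 0 genes where the numbered pairing called 34, 8 and 4 in the 3 knockout comparisons.

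Reversed values reached 0.40 at most. This was Ahr in the difference between the knockout effects without DP cKO replicate 4, against -0.11 in the 11 arrays. In V2 WT minus DP WT they were 0.06 for Rxrb with the immV2 titles alone and 0.11 for Nr1d1 with the V2imm titles alone; without single arrays Rxrb ran from -0.15 to 0.04, Rara from -0.29 to 0.06 and Nr1d1 from -0.33 to 0.11. In V2 cKO minus DP cKO they were 0.21 for Vdr and 0.18 for Rxrb with the immV2 titles alone, and for Nr3c1 0.14 with the V2imm titles alone and 0.00 with the replicate block; without single arrays Rxrb ran from -0.35 to 0.09, Rara from -0.09 to 0.25 (-0.02 without DP cKO replicate 3) and Nr3c1 from -0.13 to 0.11. In V2 cKO minus V2 WT the V2imm titles alone gave -0.07 for Rxrb, -0.03 for Rara and -0.07 for Thra, the immV2 titles alone -0.09 for Rarg, 13 arrays -0.08 for Rara, and the replicate block -0.06 for Rara and -0.04 for Thra. Without single arrays Rxrb ran from -0.17 to 0.36, Rara from -0.17 to 0.24, Rarg from -0.05 to 0.11 and Thra from -0.07 to 0.15 (-0.02 without V2 cKO replicate 5). In DP cKO minus DP WT 13 arrays gave 0.14 for Rxra, 0.03 for Rarg and 0.00 for Nr1d1, and the replicate block 0.01 for Rarg. Without single arrays Rxra ran from -0.38 to 0.28, Rara from -0.33 to 0.02, Rarg from -0.29 to 0.10, Nr3c1 from -0.13 to 0.23 and Ahr from -0.05 to 0.98. In the difference between the knockout effects Rxrb was 0.02 with no title set term and 0.12 with the immV2 titles alone, Rarg 0.00 with the immV2 titles alone and with the replicate block, and Ahr 0.06 with the immV2 titles alone. Without single arrays Rxrb ran from -0.30 to 0.22, Rara from -0.01 to 0.40, Rarg from -0.08 to 0.31 and Ahr from -0.62 to 0.40 (0.30 without DP WT replicate 3).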
